A study of Homo sapiens with 30 samples.

Results

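The levels of 10 genes were examined in HepG2 cells treated with Sorafenib: the AP-1 subunits FOS, FOSB, FOSL1, FOSL2, JUN and JUNB, the early transcription factor EGR1, the early response genes IER2 and IER3, and the proto-oncogene MYC. The list is fixed by name, with no threshold on a measured value, but it was drawn up with earlier results of these data known. Each gene matched 1 of the 60107 genes of the count table. HepG2 is a human liver cancer cell line, labelled hepatocellular carcinoma but called hepatoblastoma by the authors. Sorafenib is an inhibitor of RAF and of several receptor tyrosine kinases. All cells were transfected with an oligonucleotide and, 24 h later, received Sorafenib at 10 µM or its solvent DMSO. At 6 h of treatment the groups were IC_DMSO and IC_sorafenib, which carried an inhibitor control, and I200c_DMSO and I200c_sorafenib, which carried an inhibitor of miR-200c-3p. At 24 h they were MC_DMSO and MC_sorafenib (mimic control), M222_DMSO and M222_sorafenib (mimic of miR-222-5p), and M512_DMSO and M512_sorafenib (mimic of miR-512-3p). Each of the 10 groups had 3 libraries. No untransfected cells were included, and the 6 h libraries all held inhibitors and the 24 h libraries all held mimics, so that time and kind of oligonucleotide cannot be told apart. The labels number the libraries of a group without saying whether they came from separate cultures, and p-values measure the spread between these libraries. Where a p-value is given for edgeR with no filter on low counts, the spread was instead pooled over genes. Such a p-value does not use the gene's own spread between its libraries.

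Immediate early genes are switched on within minutes of a growth factor or stress signal, because their transcription needs no newly made protein. Mitogens act through RAS, RAF, MEK and ERK, which activates ternary complex factors that sit with SRF on CArG boxes, as in the promoters of EGR1 and FOS. Stress acts more through JNK and p38, which act on AP-1 and ATF proteins bound upstream of JUN. FOS and JUN proteins pair into AP-1, which binds DNA through their basic leucine zippers. MYC pairs with MAX and drives ribosome production and cell growth. Many of these transcripts are short-lived, and AU-rich words in the 3′ UTR, bound by proteins such as ZFP36, contribute to this. Here the exposures lasted hours, past the minutes of an acute response.

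The promoters of 7 of the 10 genes were in the RefSeq table used (GRCh38.p14), as windows of 300 bases from 250 before to 50 after the start site. Those of JUN and JUNB, which moved together, and of EGR1, which moved the other way, are shown with FOS for comparison, as the 150 bases before the start, 5′ to 3′. Capitals mark CArG boxes, TGACGT and TGACATCA, each searched on both strands.
JUN (chr1:58784048-58784197, minus strand): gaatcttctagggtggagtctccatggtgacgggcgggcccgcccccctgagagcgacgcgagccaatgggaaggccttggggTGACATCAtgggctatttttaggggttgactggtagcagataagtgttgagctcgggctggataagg
JUNB (chr19:12791336-12791485, plus strand): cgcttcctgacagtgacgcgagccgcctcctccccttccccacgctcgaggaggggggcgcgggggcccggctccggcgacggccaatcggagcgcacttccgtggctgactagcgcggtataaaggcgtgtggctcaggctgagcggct
EGR1 (chr5:138465329-138465478, plus strand): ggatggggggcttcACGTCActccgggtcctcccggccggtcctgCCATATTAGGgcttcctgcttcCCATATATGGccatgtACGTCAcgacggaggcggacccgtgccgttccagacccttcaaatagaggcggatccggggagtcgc
FOS (chr14:75278678-75278827, plus strand): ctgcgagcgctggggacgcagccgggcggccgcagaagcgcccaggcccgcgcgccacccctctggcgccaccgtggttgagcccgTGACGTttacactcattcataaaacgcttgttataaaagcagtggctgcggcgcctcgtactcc

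EGR1 was the only one of the 7 windows with a CArG box, and it held 2, which start at bases -105 and -83. The windows reach 250 bases before the start site, so a CArG box further upstream, in FOS or another gene, would not be seen here. A CArG box was found in 1.29% of the 35116 promoters of that table. TGACGT, the core of a CREB and ATF site, occurred in 7.98% of promoters. It was found in FOS (from base -64), FOSB (from base -60), FOSL2 (from base -66) and at 2 places in EGR1. TGACATCA, a variant site bound by JUN and ATF proteins, was found in JUN alone of the 7, from base -67, and in 2.61% of promoters. The AP-1 site TGACTCA (4.95% of promoters) was in FOSL2 alone, and the E-box CACGTG (7.26%) in none of the 7. JUNB and IER2 held none of these words. A match is a description of these letters, and binding was not measured.

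Libraries held 3938764 to 9657063 counts (median 6460786). Levels are given as CPM, the counts per 1000000 after TMM scaling in edgeR. Taking 3 counts as the limit for a count of 0, a gene not detected could lie at 0.311 to 0.762 CPM, which covers counting error only. All 12 hepatocyte-lineage markers, such as ALB and AFP, averaged at least 1 CPM, and together they held 7672 to 17850 CPM. Of 5 leukocyte markers, CD3E was at 0 in every library. With LYZ the list summed to 100.9 to 308.7 CPM (median 160.2), and without LYZ to at most 9.16 CPM. Of 7 fibroblast and endothelial markers, COL1A2 and VWF were at 0 throughout, and the list summed to at most 16.8 CPM. In MC and M222 the libraries numbered 2 were the shallowest (3941570 to 4939876 counts) and had the most genes with a count (16132 to 16334). In M512_sorafenib, replicate 3 had 16582 genes with a count, against 13656 and 13866 in replicates 1 and 2. Genes of mitochondrial DNA held 17.5% of its counts, against 24.2% in each of the other replicates.

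JUN and JUNB were the genes of the set with the largest increases. Both rose with Sorafenib in I200c at 6 h and in all 3 transfections at 24 h, and the fold was larger at 24 h. JUN, a central AP-1 subunit that lies on chromosome 1 (58776845 to 58784048, minus strand, 1 exon), was at 144, 171 and 103 CPM in IC_DMSO and at 219.6, 220.1 and 232 CPM in IC_sorafenib. In I200c it was at 114, 106 and 147 CPM with DMSO and at 186, 229 and 262 CPM with Sorafenib. The 6 treated libraries of 6 h all lay above the 6 untreated ones.

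At 24 h JUN was at 69.5, 135 and 40.1 CPM in MC_DMSO and at 474, 300.3 and 534 CPM in MC_sorafenib. In M222 the levels were 28.8, 149.6 and 45.6 CPM with DMSO and 652, 379 and 523 CPM with Sorafenib. In M512 they were 46.9, 30.4 and 54.1 CPM against 636, 663 and 422 CPM. The lowest treated library (300.3 CPM) lay above the highest untreated one (149.6 CPM), and within MC and M222 the library numbered 2 was the highest untreated and the lowest treated.

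The log2 fold change of JUN was 0.68 (SE 0.18) in IC, where the edgeR Benjamini-Hochberg adjusted p of 0.358 did not pass 0.05. It was 0.87 (SE 0.18, adjusted p = 0.0131) in I200c, 2.43 (SE 0.45, adjusted p = 0.00279) in MC, 2.80 (SE 0.46, adjusted p = 0.000724) in M222 and 3.72 (SE 0.47, adjusted p = 1.91e-05) in M512. The call in I200c was lost without I200c_DMSO replicate 1 (adjusted p = 0.051) or I200c_sorafenib replicate 2 (adjusted p = 0.052). Averaged over transfections, JUN was up-regulated 1.71-fold at 6 h (adjusted p = 0.0014) and 7.91-fold at 24 h (adjusted p = 1.75e-08).

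JUNB, an AP-1 subunit that can oppose JUN, lies on chromosome 19 (12791486 to 12793315, plus strand, 1 exon). It was at 36.5, 50.1 and 23.9 CPM in IC_DMSO and at 73.2, 79.2 and 86.5 CPM in IC_sorafenib. In I200c it was at 35.2, 27.0 and 37.7 CPM with DMSO and at 88.8, 86.3 and 80.7 CPM with Sorafenib. As for JUN, no treated library overlapped an untreated one at 6 h.

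At 24 h JUNB was at 14.4, 32.2 and 5.21 CPM in MC_DMSO and at 193.5, 96.1 and 182 CPM in MC_sorafenib. In M222 it was at 14.5, 39.0 and 11.4 CPM against 258, 136 and 214 CPM. In M512, where the untreated level was lowest, it was at 7.84, 4.42 and 7.65 CPM against 196, 101 and 197 CPM. Again the libraries numbered 2 of MC and M222 were the closest pair.

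The log2 fold change of JUNB was 1.11 (SE 0.21) in IC, with an adjusted p of 0.0564 in edgeR and 0.00101 in DESeq2. It was 1.35 (SE 0.21) in I200c, 3.24 (SE 0.49) in MC, 3.25 (SE 0.48) in M222 and 4.63 (SE 0.52) in M512, with edgeR adjusted p-values of 0.000991, 0.000537, 0.000422 and 4.71e-06. Averaged, the increase was 2.34-fold at 6 h (adjusted p = 4.92e-05) and 13.0-fold at 24 h (adjusted p = 2.58e-09). HOOK2, a gene on the opposite strand that overlaps JUNB, had 2292 counts in all against 16049 for JUNB. The strand setting of the counting is not given in the sources used here. Without the 6 libraries of 24 h numbered 2, an alternative chosen after the data were seen, the averaged log2 fold changes at 24 h were 3.53 for JUN and 4.36 for JUNB.

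**Figure D1:**
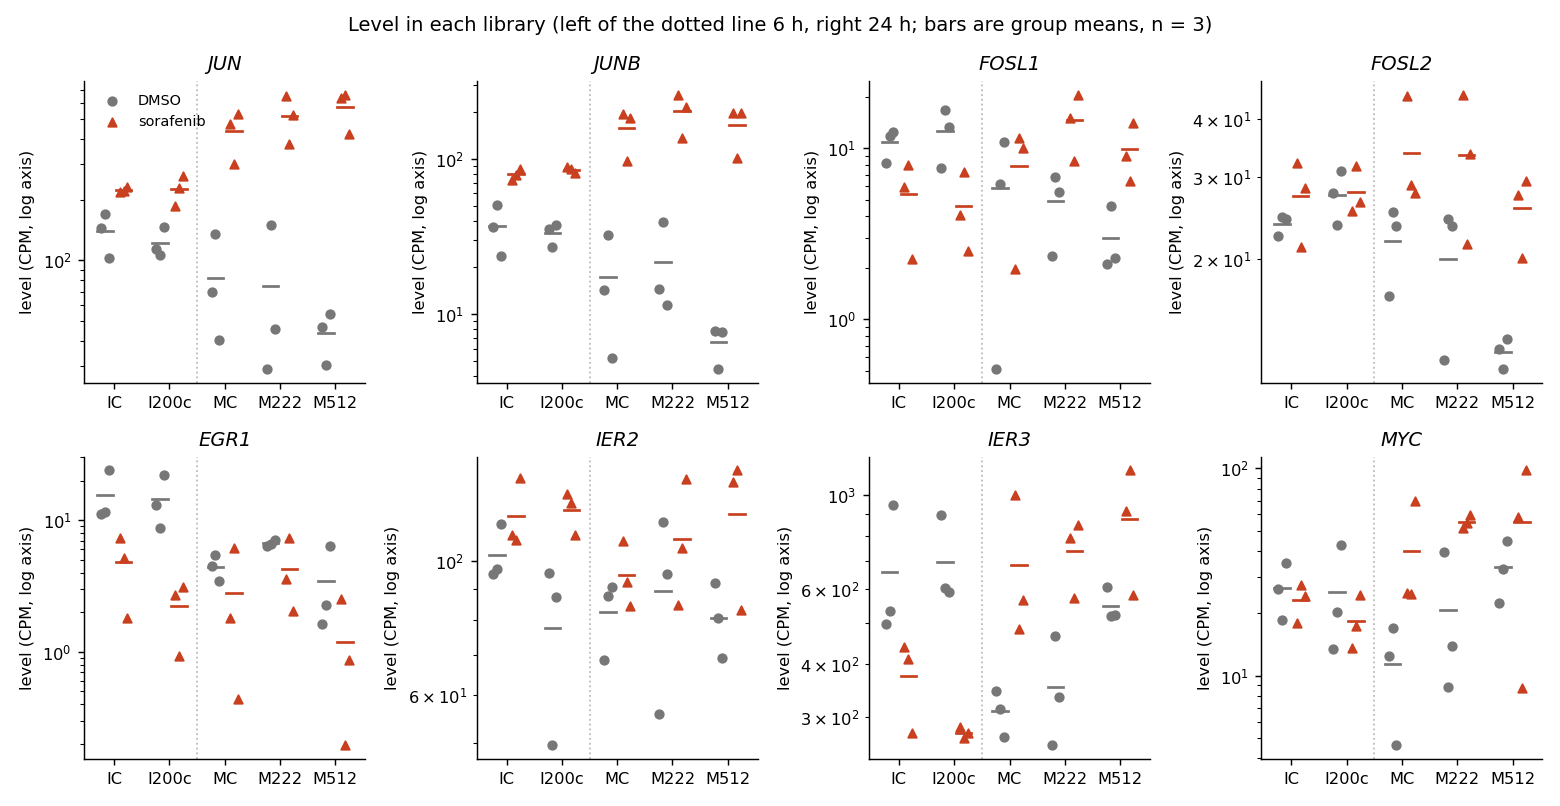
Level of 8 genes in each of 30 libraries, in CPM on a log axis, by transfection. Grey circles are DMSO, red triangles Sorafenib, bars group means (n = 3), with 6 h left and 24 h right of the dotted line. JUN and JUNB separate by treatment in every transfection, while EGR1 and IER3 separate at 6 h, where the treated libraries are the lower ones. IER3 also separates in MC and M222, with the treated libraries higher. FOSL1 separates within IC and I200c, treated lower, and within M222 and M512, treated higher.

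Among the FOS proteins, FOSL1 fell at 6 h and rose at 24 h, FOSL2 rose at 24 h, and FOS and FOSB were hardly detected. FOSL1, also called FRA-1, lacks the transactivation domain of FOS and is stabilised by ERK. It was at 8.25, 11.7 and 12.4 CPM in IC_DMSO against 5.91, 7.95 and 2.24 CPM in IC_sorafenib. In I200c it was at 7.61, 16.7 and 13.4 CPM with DMSO against 4.05, 7.28 and 2.49 CPM with Sorafenib. The treated libraries lay below the untreated ones within each transfection. The averaged log2 fold change at 6 h was -1.24 (SE 0.31, edgeR adjusted p = 0.0334), a 2.35-fold decrease. In I200c alone the log2 fold change of -1.45 had an adjusted p of 0.087 in edgeR, 0.0358 in DESeq2 and 0.0107 in edgeR with no filter. The averaged call was lost when any 1 of 8 of the 12 libraries was left out, with the log2 fold change between -1.48 and -1.04 over all 12.

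At 24 h FOSL1 was at 0.509, 6.14 and 10.9 CPM in MC_DMSO against 1.956, 11.5 and 9.98 CPM in MC_sorafenib, and these ranges overlapped. In M222 it was at 2.35, 6.77 and 5.55 CPM against 15.0, 8.40 and 20.5 CPM, and in M512 at 2.12, 4.57 and 2.27 CPM against 9.05, 6.44 and 14.1 CPM, in both cases without overlap. No single transfection passed the edgeR test, while with no filter M512 did (adjusted p = 0.0331). Averaged, FOSL1 rose 2.38-fold (log2 1.25, SE 0.41, edgeR adjusted p = 0.0253). This call was lost without M222_sorafenib replicate 3, M512_DMSO replicate 1 or M512_sorafenib replicate 3 (adjusted p 0.0505, 0.052 and 0.0526).

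FOSL2, or FRA-2, a FOS relative with a more lasting expression, ranged from 22.4 to 30.9 CPM (median 24.5) in the 6 untreated libraries of 6 h and from 21.3 to 32.2 CPM (median 27.5) in the treated ones. At 24 h it was at 12.8, 11.6 and 13.5 CPM in M512_DMSO against 27.5, 20.1 and 29.5 CPM in M512_sorafenib. Here it passed the test (log2 fold change 1.03, SE 0.32, edgeR adjusted p = 0.0418), but the call was lost when any 1 of 5 of these 6 libraries was left out and with scaling to total counts (adjusted p = 0.0868). Averaged at 24 h, FOSL2 rose 1.75-fold (adjusted p = 0.00205).

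FOS, the founding partner of JUN, had 117 counts in all libraries together, was at 0 in 7 of them and reached at most 2.68 CPM. FOSB had 92 counts, was at 0 in 13 libraries and reached at most 1.82 CPM. Both failed the filter on low counts, so 8 of the 10 genes were tested. FOSB had 3 counts over the 9 untreated libraries of 24 h (MC 1, M222 0, M512 2) and 41 over the 9 treated ones (MC 14, M222 11, M512 16). The treated libraries held 13, 1 and 0 counts in MC, 0, 3 and 8 in M222, and 0, 6 and 10 in M512. Treated and untreated libraries overlapped in every transfection of 24 h. With no filter, FOSB passed the averaged test at 24 h (log2 fold change 3.775, SE 1.37, edgeR adjusted p = 0.0419) and FOS did not (adjusted p = 0.975). FOSB overlaps ERCC1 on the opposite strand, which had 3334 counts.

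EGR1, a zinc finger factor and a standard readout of ERK signalling, fell at 6 h. On chromosome 5 (138465479 to 138469303, plus strand, 2 exons), it was at 11.2, 11.5 and 23.9 CPM in IC_DMSO against 7.30, 5.19 and 1.82 CPM in IC_sorafenib. In I200c it was at 13.0, 8.79 and 22.03 CPM with DMSO against 2.70, 0.923 and 3.09 CPM with Sorafenib. The 6 treated libraries all lay below the 6 untreated ones. The log2 fold change was -1.71 (SE 0.49, edgeR adjusted p = 0.452) in IC and -2.72 (SE 0.51, adjusted p = 0.00547) in I200c. Averaged, the decrease was 4.65-fold (log2 -2.22, SE 0.35, adjusted p = 0.00092).

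At 24 h the 9 untreated libraries held EGR1 at 1.62 to 7.11 CPM (median 5.41), below every untreated library of 6 h (8.79 to 23.9 CPM). The 9 treated ones ranged from 0.195 to 7.27 CPM (median 2.05), and the groups overlapped in every transfection. The averaged log2 fold change was -0.95 (SE 0.48, edgeR adjusted p = 0.153). Without MC_sorafenib replicate 2, whose 6.17 CPM was above all MC_DMSO libraries, it was -1.34 (adjusted p = 0.0447).

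IER3, also called IEX-1, an ERK target that affects cell survival, fell at 6 h and rose at 24 h. It lies on chromosome 6 (30743199 to 30744548, minus strand, 2 exons). It was at 496, 533 and 947 CPM in IC_DMSO against 439.8, 411 and 275 CPM in IC_sorafenib. In I200c it was at 894, 604 and 591 CPM with DMSO against 284, 268 and 275 CPM with Sorafenib. Again no treated library of 6 h reached an untreated one.

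At 24 h IER3 went the other way. It was at 346, 313 and 269 CPM in MC_DMSO against 999, 484.8 and 567 CPM in MC_sorafenib, and in M222 at 258, 465 and 335 CPM against 791, 572 and 849 CPM. In M512 the untreated level was higher, at 606, 519.6 and 521 CPM, and the treated libraries, at 915, 1141 and 581 CPM, overlapped it.

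The log2 fold change of IER3 was -0.82 (SE 0.22, edgeR adjusted p = 0.36) in IC and -1.34 (SE 0.22, adjusted p = 0.00192) in I200c. It was 1.15 (SE 0.27, adjusted p = 0.0192) in MC, 1.06 (SE 0.27, adjusted p = 0.0217) in M222 and 0.69 (SE 0.27, adjusted p = 0.103) in M512. Leaving out MC_DMSO replicate 3 (adjusted p = 0.133) or MC_sorafenib replicate 1 (0.178) ended the call in MC, and leaving out M512_sorafenib replicate 3 gave one in M512 (0.0243). That in M222 was lost without replicate 1 or 3 of either group (adjusted p 0.08 to 0.101). Averaged, IER3 fell 2.11-fold at 6 h (adjusted p = 0.000364) and rose 1.95-fold at 24 h (adjusted p = 5.87e-05). IER3-AS1, on the opposite strand, had 748 counts against 106070 for IER3.

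IER2, an early response gene that encodes a nuclear protein, did not pass the edgeR test in any transfection. It ranged from 49.6 to 115 CPM (median 95.4) in the untreated and from 108 to 137 CPM (median 118) in the treated libraries of 6 h. At 24 h the ranges were 56.0 to 116 CPM (median 87.7) and 83.0 to 141 CPM (median 105). The averaged log2 fold change was 0.42 (SE 0.14, edgeR adjusted p = 0.122) at 6 h and 0.36 (SE 0.15, adjusted p = 0.0745) at 24 h. In I200c all treated libraries lay above the untreated ones, and the log2 fold change of 0.64 (SE 0.19) had an adjusted p of 0.0939 in edgeR, 0.044 in DESeq2 and 0.0136 in edgeR with no filter on low counts. With no filter the averaged effect at 6 h was also called (adjusted p = 0.0238). In M512 IER2 was called without M512_sorafenib replicate 3 (adjusted p = 0.0486). The averaged call at 24 h was gained without M222_DMSO replicate 2, M222_sorafenib replicate 1 or M512_sorafenib replicate 3 (adjusted p 0.0216 to 0.0375).

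MYC rose at 24 h when the transfections were averaged. On chromosome 8 with 3 exons, it was at 26.1, 18.6 and 34.8 CPM in IC_DMSO against 17.9, 27.4 and 24.3 CPM in IC_sorafenib, and at 13.4, 20.3 and 42.6 CPM in I200c_DMSO against 13.6, 17.3 and 24.4 CPM in I200c_sorafenib. These ranges overlapped, and the averaged log2 fold change at 6 h was -0.34 (SE 0.24, edgeR adjusted p = 0.552).

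At 24 h MYC was at 12.5, 16.96 and 4.63 CPM in MC_DMSO against 25.0, 24.9 and 69.9 CPM in MC_sorafenib. In M222 it was at 39.7, 8.80 and 13.9 CPM against 51.5, 54.5 and 59.7 CPM. In M512 it was at 22.4, 32.9 and 44.6 CPM against 58.2, 8.78 and 97.7 CPM, so that 1 treated library was below all untreated ones. The log2 fold change was 1.84 (SE 0.61, edgeR adjusted p = 0.105) in MC, 1.37 (SE 0.58, adjusted p = 0.189) in M222 and 0.72 (SE 0.57, adjusted p = 0.48) in M512. With no filter on low counts, edgeR called MYC in MC (adjusted p = 2.89e-07) and M222 (adjusted p = 0.000215). These 2 values rest on a spread pooled over genes and leave out the spread of MYC between its own libraries. Averaged with the filter, the log2 fold change was 1.31 (SE 0.34, edgeR adjusted p = 0.00584), a 2.48-fold increase.

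**Figure D2:**
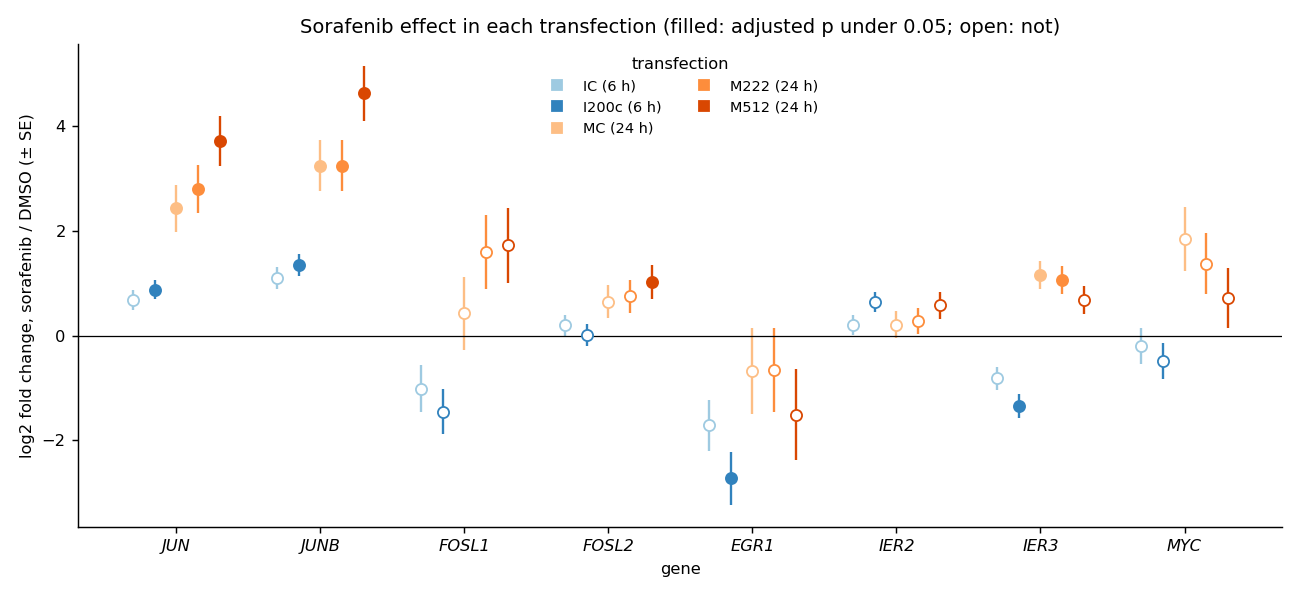
Log2 fold change of Sorafenib over DMSO with its SE for 8 genes in 5 transfections, with 6 h in blue and 24 h in orange. Filled points have an adjusted p under 0.05 in edgeR. JUN and JUNB lie above 0 in every transfection and EGR1 below 0, and FOSL1 and IER3 lie below 0 at 6 h and above 0 at 24 h.

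By transfection, the number of genes called was smallest in IC. There edgeR called 0 of the 8 tested genes, where it called 0.0393% of all genes tested. Of the 8, 5 had an unadjusted p under 0.05, beside 481 of all 12738 genes, and DESeq2 called 1, beside 35. In I200c, 2 were up-regulated (JUN, JUNB) and 2 down-regulated (EGR1, IER3), against 0.911% and 1.37% of all genes. DESeq2 called 6 of the 8 there, beside 541 of all 12738 genes, with IER2 also higher and FOSL1 also lower. Up-regulated genes numbered 3 in MC (JUN, JUNB and IER3, with 1.8% of all genes), 3 in M222 (JUN, JUNB and IER3, with 2.82%) and 3 in M512 (JUN, JUNB and FOSL2, with 5.34%). None of the 8 was called lower by edgeR in these 3 transfections, where 0.793%, 1.56% and 4.62% of all genes were. In either direction, 4, 6 and 6 of the 8 had an unadjusted p under 0.05, beside 2232, 2531 and 3205 of all 13244 genes. DESeq2 also called 3 in each, beside 687, 1014 and 1820 of all genes.

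Averaged over transfections, 2 genes rose and 3 fell at 6 h (1.15% and 1.73% of all genes). At 24 h, 6 rose and 0 fell, where 13.4% of all genes rose and 12.4% fell. An unadjusted p under 0.05 was found for 6 of the 8 at 6 h, beside 1962 of all 12738 genes. At 24 h it was found for 7 of the 8, beside 4967 of all 13244 genes. The median log2 fold change of the 8 was -0.12 at 6 h and 1.11 at 24 h, beside 0.005 and -0.04 over all genes. With scaling to total counts, the median of all genes at 24 h moved to -0.17 and of the genes called in either direction 32.8% were then higher, in place of 52.1%. The calls and directions of the 8 averaged effects at 24 h did not change with it.

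Whether the effect of Sorafenib differed between the times was first tested in the transfection controls. The difference, 24 h minus 6 h, was 1.94 on the log2 scale for IER3 (SE 0.38, edgeR adjusted p = 0.0462), the 1 gene of 8 called, where 0.216% of all genes were called. The call was lost when any 1 of 10 of the 12 libraries was left out (difference 1.55 to 2.14, adjusted p up to 0.132). The differences of JUN (1.74, SE 0.43), JUNB (2.12, SE 0.58) and MYC (2.03, SE 0.60) had adjusted p-values of 0.105, 0.128 and 0.152. JUN and JUNB were called without MC_DMSO replicate 2 (adjusted p 0.0059 and 0.0116) or MC_sorafenib replicate 2 (0.0303 and 0.0397).

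Over all 30 libraries, a test added after the data were seen, 5 of the 8 genes differed between the times, where 9.4% of the 13800 genes tested were called. The differences were 2.49 for FOSL1 (SE 0.58, edgeR adjusted p = 0.00487), 2.48 for JUNB (SE 0.36, adjusted p = 2.41e-05), 2.21 for JUN (SE 0.34, adjusted p = 5.05e-05), 2.05 for IER3 (SE 0.24, adjusted p = 8.4e-07) and 1.65 for MYC (SE 0.49, adjusted p = 0.0285). Those of EGR1 (1.25, SE 0.62, adjusted p = 0.224), FOSL2 (0.71, SE 0.25, adjusted p = 0.068) and IER2 (-0.06, SE 0.22, adjusted p = 0.904) did not pass. Time and kind of oligonucleotide cannot be told apart in this test.

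**Figure D3:**
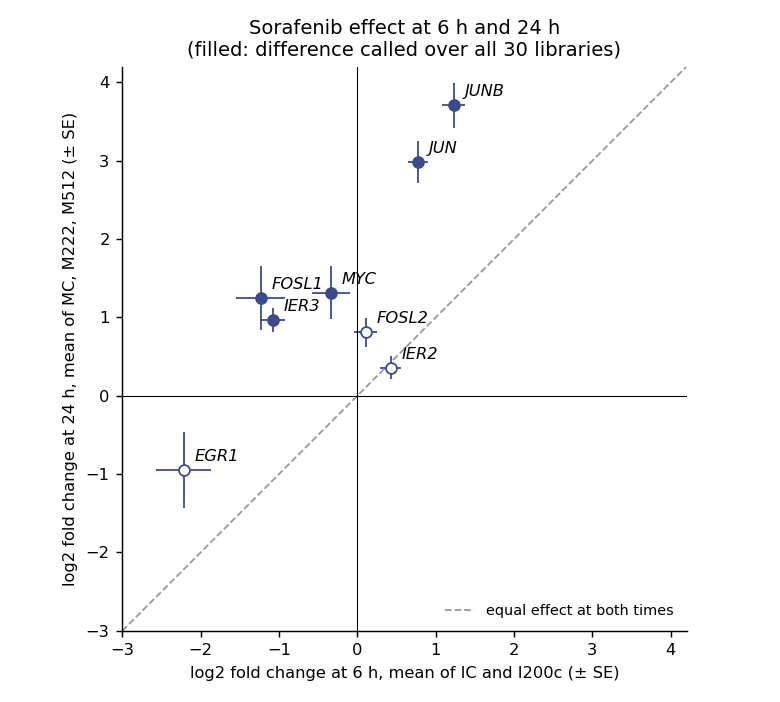
Log2 fold change of Sorafenib over DMSO at 6 h (mean of IC and I200c) against 24 h (mean of MC, M222 and M512), each with its SE, for 8 genes. Filled points differed between the times over all 30 libraries, and the dashed line marks equal effects. JUN and JUNB are high at both times and further from 0 at 24 h, FOSL1 and IER3 change sign, and IER2 lies near the line.

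The oligonucleotides were compared with their controls. Their target miRNAs, or the miRNAs they imitate, have these mature sequences in the RefSeq table, with the seed (bases 2 to 8) in capitals.
miR-200c-3p: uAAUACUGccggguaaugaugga
miR-222-5p: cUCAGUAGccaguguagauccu
miR-512-3p: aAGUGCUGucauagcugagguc

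The 3 seeds differ from each other. The site of miR-200c-3p, CAGTATT, occurs once in the canonical 3′ UTR (GENCODE 44) of FOSL2, JUN and EGR1, and that of miR-222-5p, CTACTGA, once in EGR1. The site of miR-512-3p, CAGCACT, is in none of the 10. Among 10856 expressed genes the sites occur in 19.5%, 10.7% and 23.3%.

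None of the 8 tested genes was called by edgeR, with the filter on low counts, between an oligonucleotide and its control. For I200c this held in DMSO (0.0157% of all genes called), in Sorafenib (0%) and for the interaction with Sorafenib (0%). Each had 0 of the 8 at an unadjusted p under 0.05, beside 667, 273 and 413 of all 12738 genes. For M222 it held in DMSO (0%), in Sorafenib (0%) and for the interaction (0%), with the same 0, beside 737, 800 and 260 of all 13244 genes. For M512 the shares of all genes called were 0.634% in DMSO, 0.355% in Sorafenib and 0.00755% for the interaction. Of the 8, 4, 0 and 2 had an unadjusted p under 0.05 there, beside 1385, 1465 and 667 of all 13244 genes. DESeq2 called none of the 8 in these 9 comparisons either.

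The genes with the low unadjusted p in M512_DMSO against MC_DMSO were FOSL2 (log2 fold change -0.80, SE 0.32), JUNB (-1.34, SE 0.50), IER3 (0.81, SE 0.27) and MYC (1.56, SE 0.61), with edgeR adjusted p-values of 0.209 to 0.337. IER3 was called when the groups of this comparison were fitted alone (0.80, adjusted p = 0.0256). With no filter on low counts, the genes called by edgeR here included JUNB (adjusted p = 0.000245), IER3 (0.0149) and MYC (9.95e-05). The interaction of M512 with Sorafenib was 1.28 (SE 0.61) for JUN and 1.39 (SE 0.66) for JUNB, with an adjusted p of 0.965 for both. With no filter, that of JUN was called by edgeR (adjusted p = 0.0271). The comparisons of M222 and M512 with MC share their control libraries.

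The order of the 10 group means followed these effects. For JUN, M512_sorafenib (574 ± 132 CPM, SD, n = 3), M222_sorafenib (518 ± 137) and MC_sorafenib (436 ± 121) came first and overlapped each other. Then, without overlap, came I200c_sorafenib (225 ± 38) and IC_sorafenib (224 ± 6.76), followed by the 5 untreated groups from IC_DMSO (139 ± 34.4) down to M512_DMSO (43.8 ± 12.1), each overlapping the next. For EGR1, IC_DMSO (15.5 ± 7.24 CPM) and I200c_DMSO (14.6 ± 6.77) came first and did not overlap M222_DMSO (6.68 ± 0.378). All later neighbours overlapped down to M512_sorafenib (1.19 ± 1.19). For MYC every neighbouring pair overlapped, from M222_sorafenib (55.2 ± 4.14 CPM) to MC_DMSO (11.3 ± 6.24).

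Relatives of these genes, in lists chosen with earlier results of these data known, moved as follows in the averaged test, where of all genes 13.4% were called higher and 12.4% lower at 24 h, and 1.15% and 1.73% at 6 h. Of 15 other AP-1 and partner bZIP genes, 14 were tested and 8 rose at 24 h, with 0 called lower by edgeR or DESeq2 (median log2 fold change 1.11, beside -0.04 over all genes). ATF3, a stress-induced ATF protein, rose 9.32-fold (edgeR adjusted p = 5.04e-08). The small MAF proteins MAFF and MAFG rose 4.65-fold and 3.06-fold, and JDP2, a repressor of AP-1, 3.14-fold. At 6 h, 1 rose and 1 fell: NFIL3, a bZIP repressor, rose 1.45-fold (adjusted p = 0.0189) and MAFG had a log2 fold change of -0.62 (adjusted p = 0.0297).

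Of 26 other immediate early genes, 18 were tested and 15 rose at 24 h, with 0 called lower by edgeR or DESeq2 (13.4% and 12.4% of all genes, median 1.38). The increases were 14.9-fold for GADD45B, a stress sensor that acts on MAPK signalling, and 8.2-fold for CCN1, a matrix protein. ZFP36, a protein that promotes decay of AU-rich transcripts, rose 7.76-fold, and DUSP1, a phosphatase of p38 and JNK, rose 7.32-fold. The edgeR adjusted p-values of these 4 were at most 0.00111. ZFP36 was near the detection limit without the drug, with DMSO group means of 0.249 CPM in MC, 0.891 in M222 and 0.775 in M512. With Sorafenib its means were 3.015, 4.36 and 5.73 CPM. At 6 h, 3 rose and 5 fell (1.15% and 1.73% of all genes, median 0.15). GADD45B rose 5.95-fold (adjusted p = 1.76e-06) and CCN1 1.93-fold, while the antiproliferative BTG2 (log2 fold change -1.36, adjusted p = 0.0177) and the survival gene MCL1 (-0.72, adjusted p = 0.0198) fell.

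The ERK output genes, 13 of 16 tested, had 3 called lower by edgeR (5 by DESeq2) and none higher by either at 6 h (1.73% and 1.15% of all genes by edgeR, median -0.48). These were the ERK phosphatase DUSP6 (-1.01, edgeR adjusted p = 0.000317), SPRED1, which restrains RAS and ERK signalling (-0.997, adjusted p = 0.0115) and PHLDA1 (-0.48, adjusted p = 0.0314), which is also in the list of immediate early genes. At 24 h, 4 were called higher and 1 lower, where 13.4% and 12.4% of all genes were (median 0.23), so that the 1 of 13 lower was below the share of all genes. The receptor EPHA2 rose 3.2-fold, and the feedback inhibitors SPRY2 and SPRED2 3.13-fold and 2.31-fold. The cyclin CCND1 had a log2 fold change of -0.51 (adjusted p = 0.00257). Of 8 SRF and ternary complex factor genes, SRF fell at 6 h (-0.61, adjusted p = 0.02), and MRTFA, a coactivator of SRF, rose 2.5-fold at 24 h (adjusted p = 1.94e-05). This 1 of 8 was near the share of all genes called higher at 24 h.

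Of 12 MYC partners and relatives, 11 were tested. At 24 h MXD1, which competes with MYC for MAX, rose 4.17-fold (edgeR adjusted p = 1.22e-07), and its relative MXD4 fell (log2 fold change -1.08, adjusted p = 3.07e-05), 1 of 11 each way, below the 13.4% and 12.4% of all genes. At 6 h edgeR called 0 of the 11 and DESeq2 1, with 2 at an unadjusted p under 0.05, beside 1962 of all 12738 genes. MXD1 was at 0.73 (edgeR adjusted p = 0.0909). Of 30 known MYC target genes, all tested, 13 rose and 3 fell at 24 h (median 0.24), where 13.4% of all genes rose and 12.4% fell, so that the number that fell was near the share of all genes. ODC1, which starts polyamine synthesis, rose 1.91-fold (adjusted p = 0.000345), and the ribosome biogenesis genes NOP2 and WDR43 rose 1.69-fold and 1.62-fold. CAD, of pyrimidine synthesis, fell (-0.83, adjusted p = 0.00324). At 6 h edgeR and DESeq2 called 0, and 3 had an unadjusted p under 0.05, beside 1962 of all 12738 genes. The lowest p was that of POLR1B (-0.37, edgeR adjusted p = 0.152).

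**Figure D4:**
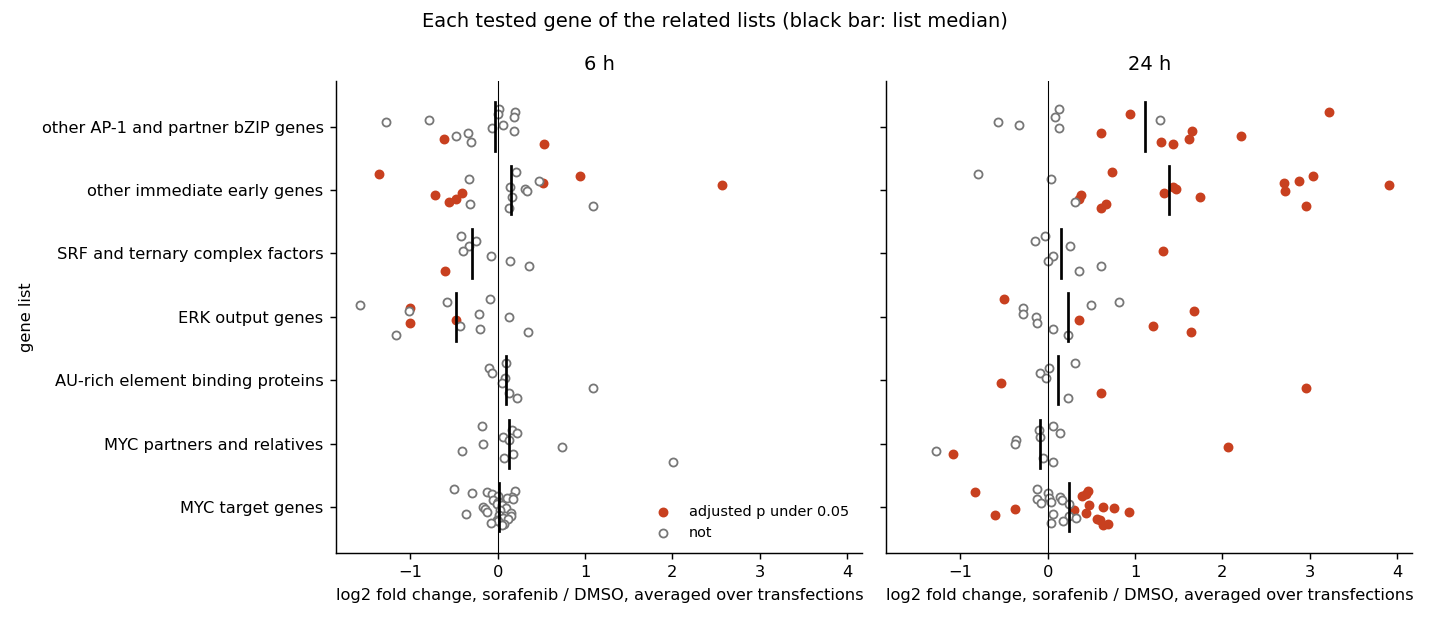
Averaged log2 fold change of Sorafenib over DMSO at 6 h (left) and 24 h (right) for every tested gene of 7 related lists. Red points have an edgeR adjusted p under 0.05, and black bars are list medians. At 24 h the other AP-1 and bZIP genes (median 1.11) and the other immediate early genes (median 1.38) lie mostly to the right of 0, and the MYC targets lie nearer to 0 (median 0.24).

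Proteins that bind AU-rich words were measured as a list of 8. At 24 h ZFP36 and its relative ZFP36L1 (1.53-fold) rose and TIA1 fell (log2 fold change -0.54, edgeR adjusted p = 0.0122). With 2 of 8 higher and 1 of 8 lower, beside 13.4% and 12.4% of all genes, these counts were within 1 gene of the shares of all genes. At 6 h edgeR and DESeq2 called 0 of the 8, with 0 at an unadjusted p under 0.05, beside 1962 of all 12738 genes. ZFP36 was at 1.09 (edgeR adjusted p = 0.326). The word ATTTA, searched on the transcript strand, was found 6 times in the 3′ UTR of IER3 (737 bases, 8.14 words per kb) and 5 times in that of FOS (806 bases, 6.203 per kb). These densities were above those of 98.1% and 95.2% of 10856 expressed genes, whose median was 1.74 per kb. JUNB had 4.0, MYC 3.01, JUN 2.34, FOSL2 1.85, FOSB 1.38, FOSL1 1.20 and EGR1 0.818 words per kb, and IER2 had none, as had 26.2% of the genes.

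Of the markers of cell identity, 6 of 12 hepatocyte-lineage genes were called lower at 24 h (median -0.30), beside 12.4% of all genes. At 6 h edgeR and DESeq2 called 0, with 2 at an unadjusted p under 0.05, beside 1962 of all 12738 genes (median 0.06). The largest changes at 24 h were those of APOB (log2 fold change -1.06, edgeR adjusted p = 1.23e-05) and HNF4A (-0.999, adjusted p = 2.4e-06), followed by AFP (-0.62) and TTR (-0.62). Their part in the other changes was not tested. LYZ, the leukocyte marker that HepG2 libraries held in quantity, was called lower at 24 h (-0.35, adjusted p = 0.0373). PDGFRB, a fibroblast marker, was called lower at 6 h (-3.27, adjusted p = 0.019), from group means of at most 3.44 CPM.

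The genes with the most similar pattern were sought over the 30 libraries, as Pearson r of log2 CPM after the mean of the libraries of the same time was taken off, among 8179 genes with a mean of at least 10 CPM. All libraries share the split by Sorafenib, so this is a description. Those nearest to JUN were MT-CO1 (r = 0.967), NFKBIA (0.965) and JUNB (0.964), and those nearest to JUNB were NFKBIA (0.971), JUN (0.964) and SERTAD2 (0.963). For FOSL2 they were FURIN (0.809), LARP6 (0.792) and TSC22D2 (0.785). For IER3 they were ZNF296 (0.813), AREG (0.802) and ATP6V1B2 (0.797), for IER2 DDRGK1 (0.81), CHCHD2 (0.777) and FXR2 (0.749), and for MYC MAIP1 (0.931), RAB1A (0.922) and CCNH (0.92).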

How the data were processed

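QuantSeq 3′ mRNA libraries of HepG2 cells, which hold reads near the 3′ end of transcripts, were analysed. The authors made FASTQ files with DRAGEN, trimmed the reads, mapped them to GRCh38 with STAR and ran HTSeq-count for gene counts, all within the Quantseq pipeline of Bluebee. They used DESeq2 for their own comparisons. The annotation release, the strand setting and any molecular identifiers are not given in the sources used here. The deposited matrix holds raw counts per Ensembl gene. A deposited normalised matrix was not used, because the tests need counts. Of 60199 lines, 92 named no gene (3 counts) and were left out.

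Libraries held 3938764 to 9657063 counts, and the labels gave 10 groups of 3. Replicates differed by more than counting error (chi-square per degree of freedom 4.54 to 66.2). Counts were tested with edgeR 4.0.16 in R 4.3.3 (TMM scaling, filterByExpr, 1 coefficient per group, quasi-likelihood F test, two-sided). The p-values were adjusted by Benjamini-Hochberg over all genes tested, and those under 0.05 were called. Separate fits used the 12 libraries of 6 h (12738 genes), the 18 of 24 h (13244) and the 12 of the transfection controls (12500). An averaged effect is the mean of the log2 fold changes of the transfections at 1 time. The SE is the log2 fold change divided by the square root of F. The fits were tested on simulated data. Alternatives were DESeq2 1.42.0, other scalings, no filter, the compared groups alone, a replicate block and each library left out.

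The members, fixed by name, and the gene lists were chosen with earlier results of these data known. All 10 members are named. Of each other list up to 4 genes per time are named, those called in the averaged effect with the largest log2 fold change, or else the 1 with the lowest p. Gene positions and 3′ UTRs came from GENCODE 44, and promoters and miRNAs from RefSeq.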

Additional observations from a re-analysis of the deposited data

Results flagged for a closer look

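The effect of Sorafenib differed between 24 h and 6 h, by a test of the difference itself (edgeR, Benjamini-Hochberg adjusted p under 0.05), for IER3 in the transfection controls (difference of log2 fold changes 1.94, adjusted p = 0.0462). That call was lost in 10 of 12 fits with 1 library left out. Over all 30 libraries it differed for FOSL1 (2.49), JUN (2.21), JUNB (2.48), IER3 (2.05) and MYC (1.65). The signs of the separate averaged effects were opposite for IER3 and FOSL1, both called at each time. With 1 library left out, the calls of FOSL1 held in 4 of 12 fits at 6 h and 15 of 18 at 24 h. Those of IER3 held in 12 of 12 and 18 of 18. For MYC, the effect at 6 h did not pass the test. All 6 h libraries held inhibitors and all 24 h libraries mimics, so time cannot be told apart from the kind of oligonucleotide.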

How the results depend on the processing

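Over 24 alternatives, the averaged increases at 24 h of JUN (log2 fold change 2.85 to 3.53), JUNB (3.55 to 4.36), IER3 (0.82 to 1.08), FOSL2 (0.68 to 1.04) and MYC (1.07 to 1.61) kept their direction and call. Over 17 alternatives at 6 h, so did JUN (0.70 to 0.86), JUNB (1.12 to 1.37), EGR1 (-2.44 to -1.99) and IER3 (-1.17 to -0.90). Without the filter on low counts, the number called of the 10 genes rose to 4 in IC (62 of all 22799 genes). It rose to 5 in M512 (1427 of 23336) and to 4 for M512 against MC in DMSO (292 of 23336). It rose to 1 for the M512 interaction (28 of 23336) and to 4 for the time test in the controls (386 of 22582). MYC was then also called in MC and M222. The p-values with no filter use a spread pooled over genes, not each gene's own spread between libraries. DESeq2 called 1 in IC (35 of 12738 genes) and 3 in that time test (216 of 12500). Over all 30 libraries edgeR called 5 (9.4% of 13800 genes). The groups compared alone gave 1 for M512 against MC in DMSO (165 of 12109 genes). With 1 library left out, the number called was 0 to 1 in IC and 0 to 3 in the time test. The cause was not tested.

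Whether replicate numbers paired the samples could not be settled. Same-numbered deviations correlated at most weakly, at -0.11 to 0.221. The same number was still the best match, except for replicate 1 of IC, I200c and M512 and replicates 2 and 3 of MC. With the replicate block, the time test in the controls called 0 of the set (IER3 adjusted p = 0.0685). No other number of calls in the set moved by over 1.5 times. Over all genes, the number called moved from 344 to 470 in MC, 580 to 748 in M222 and 1319 to 1520 in M512. It moved from 5 to 2 in IC and from 291 to 310 in I200c. Values near 0 changed sign. FOSL2 in I200c was -0.022 with total-count scaling and ranged from -0.075 to 0.12 with 1 library left out. The leave-one-out ranges were -0.39 to 0.063 for MYC in IC, -0.78 to 0.13 for MYC in I200c, -0.11 to 1.32 for FOSL1 in MC, -0.14 to 0.10 for IER2 and -0.23 to 1.52 for EGR1, the last 2 in the time test of the controls. Depth limits FOS, FOSB and EGR1 most, whose counts per library reached 0, 0 and 1.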
